A study of Mus musculus with 6 samples.

Results

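The genes followed here belong to the Stat3 pathway that drives mammary involution, measured in glands of Brca1 mutant and control mice. They are Stat3, Socs3, Lif, Osmr, Il6st, Cebpd, Cebpb, Tgfb3 and Bcl3, and they were chosen by name, so that every probe set of the array with 1 of these symbols as its only gene was used. The 9 genes have 22 probe sets, and 8 of the 9 genes were among the 11341 genes tested, of 18193 genes with a probe set of their own. Lif fell under the filter on dim signals and is given by its values alone.

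The series measured RNA of whole mammary glands on 6 arrays, 1 mouse each, to search for genes under the control of Brca1, which acts in DNA repair and tumour suppression. All 6 were females of mixed 129, FVB and Black Swiss descent. The virgin mutant was Brca1 D11/D11;p53+/- and its control Brca1 D+/+;p53+/-, both aged 6 months. The pregnant pair, at day 16.5 of pregnancy and 5 months of age, was a Brca1 co/co/MMTV-Cre mutant with a Brca1 +/co/MMTV-Cre control, so both carried Cre recombinase driven by the promoter of mouse mammary tumour virus and only the mutant had 2 conditional copies. The lactating pair, at day 1 of lactation and 2 months of age, had the germline genotypes of the virgin pair. Germline pairs thus shared the loss of 1 p53 copy, while the label of the pregnant pair gives no p53 allele. The design text gives every mutant the germline genotype; genotypes here follow the labels of each sample. No gland of the series was taken during involution. Stage cannot be told apart from age or, for the lactating pair, from the array date in the titles, and pregnancy cannot be told apart from the conditional Brca1 allele of that pair.

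Involution is the regression of the milk-producing epithelium after weaning. Milk that stays in the gland raises the cytokine Lif and the growth factor Tgfb3, Lif binds a receptor that contains the shared chain gp130 (encoded by Il6st), and Jak kinases then phosphorylate Stat3, which enters the nucleus. Activated Stat3 turns on the transcription factor gene Cebpd and its own feedback inhibitor Socs3, and the lack of Stat3 in mouse mammary epithelium delays involution. Stat3 is activated by phosphorylation, which an RNA measurement does not see.

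Stat dimers recognise the palindrome TTCNNNGAA. Of the 7 members with a promoter window in RefSeq (GRCm38.p6, 250 bases before to 50 after the start of the gene), 1 held these letters, which read the same on both strands, against 8.3% of 32851 windows of that length. It was Socs3, the member with the widest range over the arrays. Its window, chr11:117969317-117969616 on the minus strand, is shown because Socs3 is the textbook target of Stat3 and the member with the lowest ratio in the lactating pair. It reads 5′ to 3′, with the palindrome in capitals, 154 to 146 bases before the start.

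Socs3: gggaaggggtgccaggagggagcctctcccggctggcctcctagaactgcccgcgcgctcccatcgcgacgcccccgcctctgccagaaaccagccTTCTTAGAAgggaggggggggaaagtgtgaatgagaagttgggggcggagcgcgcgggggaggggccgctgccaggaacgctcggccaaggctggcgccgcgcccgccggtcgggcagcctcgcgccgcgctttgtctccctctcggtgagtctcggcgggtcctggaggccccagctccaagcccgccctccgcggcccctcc

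The match is a description of this window and says nothing of binding. Stat3, Socs3 and Lif lie on chromosome 11, as does Brca1, with 31, 254 and 1220 protein-coding genes between each of them and Brca1 in the order of the RefSeq table.

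The values are MAS5 signals, a linear brightness per probe set that had been scaled to a trimmed mean of 500 on every array. Median signals ran from 120 to 158 in the virgin and pregnant arrays and stood at 211 in the lactating mutant and 231 in its control. Gapdh signal at the 3′ end over that at the 5′ end, a measure that rises as RNA degrades, was 1.52 in the virgin mutant and 3.50 in the virgin control and lay between 0.73 and 1.20 in the other arrays. Log2 ratios are of signal + 52.1, which understates the change of dim genes. Most milk protein and luminal genes were bright in all glands, but Lalba read 27.9 and 61.5 in the virgin mutant and control, under the filter signal of 158. Summed over 10 markers, signals were 134179 and 112154 in the virgin mutant and control. They were 206666 and 281740 in the pregnant pair and 346233 and 315132 in the lactating pair. Summed signals of 5 fibroblast markers were 79839 and 79387 in the virgin mutant and control, 53493 and 46882 in the pregnant pair and 14532 and 9992 in the lactating pair. In these whole glands fewer cells of a type and less RNA per cell cannot be told apart.

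The ligands come first. The lead probe set of Lif, the cytokine that starts Stat3 signalling in the involuting gland, read 40.8 and 72.5 in the virgin mutant and control, 11 and 153.5 in the pregnant mutant and control, and 74.4 and 47.5 in the lactating mutant and its control. All 6 values lay under the filter, which corresponds to a signal of 158, and the genotypes overlapped. The second Lif probe set read between 9.1 and 80.0 and had its highest value in the lactating control, so the 2 probe sets did not share an order. The pregnant pair's log2 ratio of -1.70 on the lead probe set was -2.70 with a pseudocount of 14.9 and -0.84 with one of 168.7, and was -0.10 on the other probe set.

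Tgfb3, a growth factor made by the epithelium when milk is retained, was brighter at each later stage. Its single probe set read 713 and 544 in the virgin mutant and control, 995 and 1862 in the pregnant mutant and control, and 3580 and 2694 in the lactating mutant and its control. The 3 stages did not overlap. Within the pairs the mutant was the higher of the 2 in virgin and lactating glands and the lower one in pregnant glands.

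The receptors behaved apart from each other. Osmr, which joins gp130 to form the oncostatin M receptor, read 1452 and 1901 in the virgin mutant and control, 692 and 952 in the pregnant mutant and control, and 883 and 719.9 in the lactating mutant and its control. Both virgin glands stood above the other 4 on this lead probe set. A second Osmr probe set, at 141 to 303, had its highest value in the pregnant control and gave log2 ratios between stages of 0.18 or less, with no call, so the stage pattern rests on the brighter probe set.

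Il6st encodes gp130 itself. Its lead probe set read 1423 and 2457 in the virgin mutant and control, 1889 and 2819 in the pregnant mutant and control, and 2256 and 2127 in the lactating mutant and its control, with the lowest value in the virgin mutant. Another bright probe set, 1452843_at, read 2864 and 2710.0 in the virgin mutant and control, 1870 and 2242 in the pregnant mutant and control, and 839 and 1249 in the lactating mutant and its control. The 2 probe sets thus ran in different directions over the stages, and the level of Il6st by stage is uncertain.

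Stat3, the transcription factor at the centre of the pathway, was bright in all glands. Its lead probe set, 1460700_at, read 2395 and 2252 in the virgin mutant and control, 1833 and 2325 in the pregnant mutant and control, and 5308 and 3022 in the lactating mutant and its control. The lactating glands lay above all others, and the lactating mutant above the lactating control. Probe set 1426587_a_at had the same top pair, at 7888 in the lactating mutant and 4563.5 in the lactating control, against 959.7 to 2415 in the other 4 glands. Probe set 1424272_at also read highest in lactation, at 591 in the mutant and 414 in the control, against 75.7 to 166 elsewhere. The fourth, 1459961_a_at, ran the other way, with 481 and 486 in the virgin mutant and control, 278 and 331 in the pregnant mutant and control, and 265 and 298.5 in the lactating mutant and its control.

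Socs3, the inhibitor that binds gp130 and shuts Stat3 signalling off, had 1 value that stood far from the rest. Its lead probe set read 369.5 and 309.6 in the virgin mutant and control, 55.7 and 156 in the pregnant mutant and control, and 173 and 1916 in the lactating mutant and its control. The lactating control was thus far above the 5 other glands, and the pregnant mutant was the lowest. The other 2 probe sets, whose names mark them as prone to cross-hybridisation, read 409 and 235 in the lactating mutant, against 5272 and 4862.5 in its control. Among the other 4 glands they read between 260.5 and 634.5.

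Cebpd, a transcription factor that Stat3 switches on and that mouse mammary epithelium needs for timely cell death in involution, read 1356 and 1498 in the virgin mutant and control, 637 and 978 in the pregnant mutant and control, and 1451 and 3633 in the lactating mutant and its control. The lactating control was the highest gland, and the mutant was the lower of each pair. The dimmer probe set of Cebpd also had its highest value, 352, in the lactating control, against 124 in the lactating mutant and 125 to 172 elsewhere. Cebpb, a relative needed for alveolar development, had its highest value in the lactating mutant instead. It read 4591 and 4584 in the virgin mutant and control, 2476 and 3454 in the pregnant mutant and control, and 13102 and 4275 in the lactating mutant and its control. Its second probe set read 1025 and 567 in the virgin mutant and control, 1103 and 1865 in the pregnant mutant and control, and 2112 and 896 in the lactating mutant and its control, so that the pregnant glands were the lowest on the lead probe set only.

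Bcl3, an atypical IkB protein that works with the NF-kB subunits p50 and p52 and is itself a Stat3 target, lay within a narrow range in 5 glands. It read 398 and 309 in the virgin mutant and control, 379 and 419.6 in the pregnant mutant and control, and 2306 and 236 in the lactating mutant and its control. The lactating mutant had the highest value and the lactating control the lowest.

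**Figure D1:**
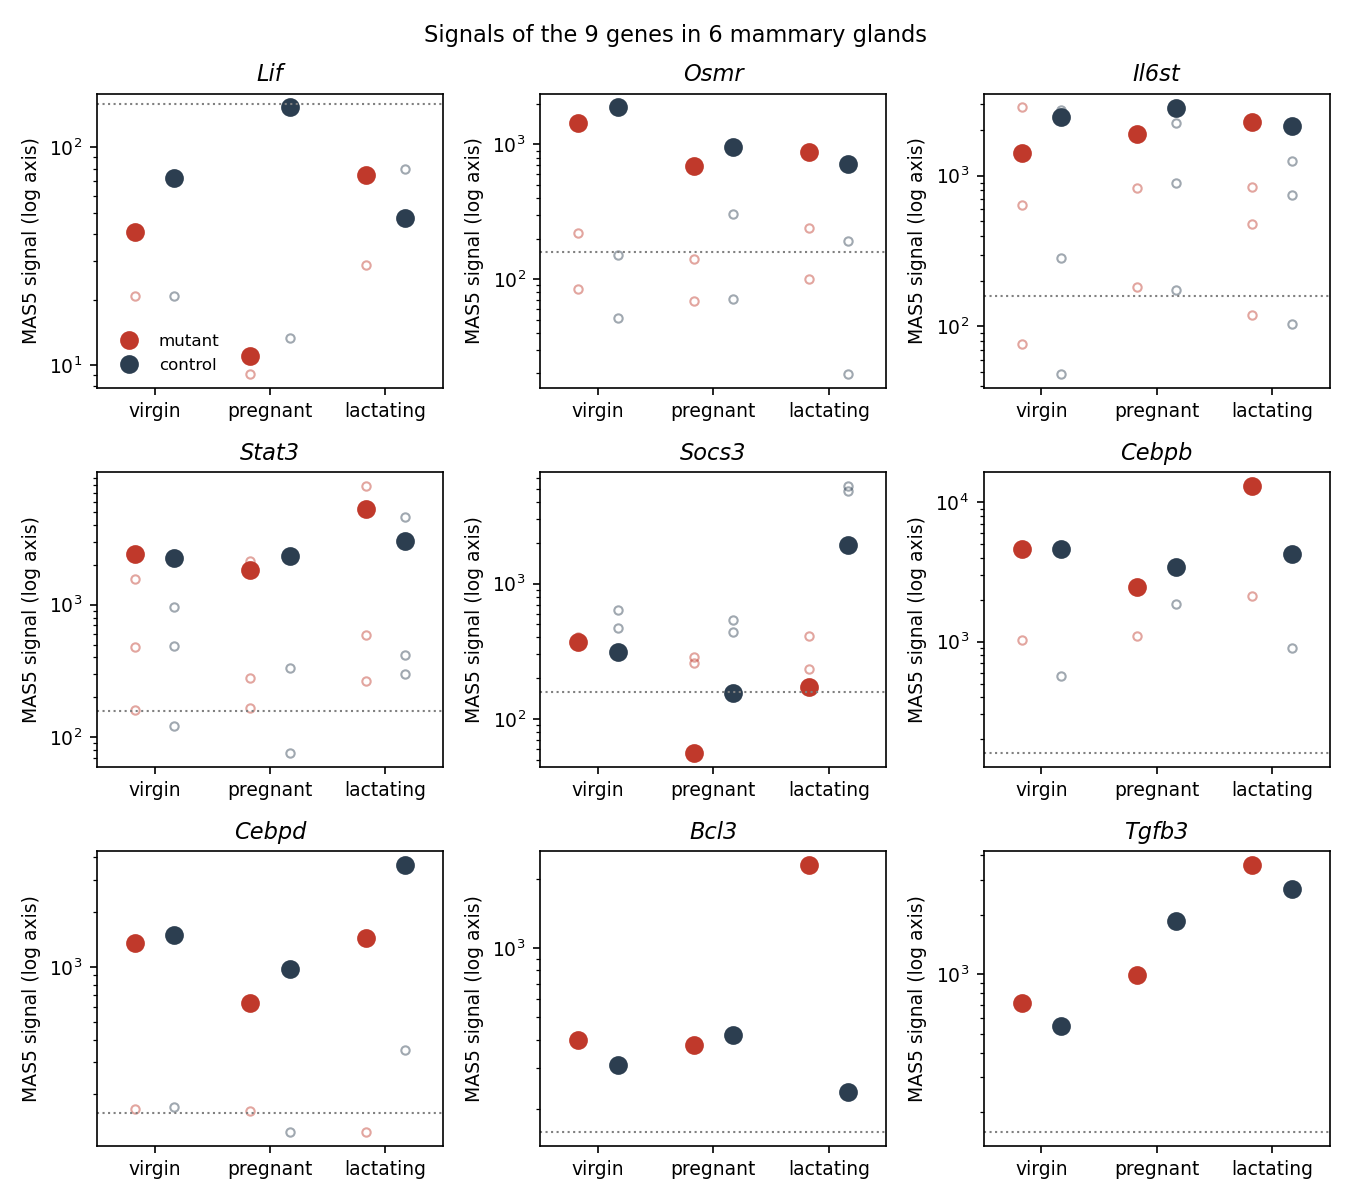
MAS5 signal (log axis) of the 9 genes in the 6 glands, by stage from virgin to lactating with the mutant left of its control. Large filled points are the lead probe set of each gene and small open points its other probe sets. The dotted line marks the filter signal of 158. Each point is 1 probe set on 1 array, so there are no error bars. The values named next are of the lead probe sets. Socs3 reads 173 in the lactating mutant and 1916 in the lactating control, while Bcl3 reads 2306 in the lactating mutant and 236 in the lactating control.

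The first tested comparison asked whether the mutant glands differed from the controls over the 3 pairs. None of the 8 tested members passed, and neither did any other gene (0 of 11341 genes, or 0%, with limma; 534 genes, or 4.71%, had an unadjusted p under 0.05). The widest member ratios were a log2 ratio of -1.28 ± 0.54 for Socs3 (SE, n = 3 pairs; limma adjusted p = 0.932) and 1.07 ± 0.54 for Bcl3 (SE, n = 3 pairs; limma adjusted p = 0.932). The 95% interval of Socs3 ran from -2.55 to -0.02 and that of Bcl3 from -0.18 to 2.33. Cebpd had a log2 ratio of -0.67 ± 0.23 and was lower in the mutant of 3 of 3 pairs (SE, n = 3 pairs; limma adjusted p = 0.932). None of the other 7 tested members had 1 sign in all pairs, and 10.6% of all tested genes were lower in all 3. Without the lactating pair the log2 ratio of Bcl3 was 0.09 and that of Cebpb was -0.23, against 0.38 over all pairs, and without the lactating mutant that of Socs3 was -0.36. The Stat3 log2 ratio was 0.18 ± 0.22 with an interval from -0.34 to 0.71 (SE, n = 3 pairs; limma adjusted p = 0.944). The difference in Stat3 RNA was within the spread of the pairs, and the interval holds differences of either sign.

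Within a stage each genotype had 1 array, so the ratios of a pair have no replicate check and no test. Counts of genes 2-fold apart within a pair, those over all genes included, are on the log2(signal + 52.1) scale, where fewer genes reach 2-fold than by signal alone. In the virgin pair none of the 8 tested members was 2-fold apart, against 2.71% of all tested genes. The largest in size was Il6st, with a log2 ratio of -0.77. Its probe set 1460295_s_at, however, had a log2 ratio of 1.05 in the same pair. All 6 skeletal muscle markers were at least 2-fold lower in the virgin mutant, with summed signals of 12096.5 in the mutant and 34967 in the control, and their part in the values of this pair was not tested.

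In the pregnant pair all 8 tested members were lower in the mutant, and 47.7% of all tested genes were. The members' median log2 ratio was -0.52, against 0.02 over all genes, and no member was 2-fold lower or higher on that scale, against 0.908% and 1.03% of all genes. By signal alone Socs3 was 2.8-fold lower. Socs3 at -0.95, Tgfb3 at -0.87, Cebpd at -0.58 and Il6st at -0.56 had the lowest log2 ratios. Socs3 was 120th and Tgfb3 151st from the bottom of 11341 genes. Not all probe sets followed: Stat3 probe set 1424272_at had a log2 ratio of 0.77 and the dimmer Cebpd probe set 0.28. Summed luminal and milk markers were also lower in this mutant, at 206666 against 281740 in its control, and their part in the members' values was not tested.

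In the lactating pair the members parted. Socs3 was 11.1-fold lower in the mutant by signal, with a log2 ratio of -3.13, and the other 2 Socs3 probe sets had log2 ratios of -3.53 and -4.10. Only 1 of the tested genes had a lower ratio than Socs3. Cebpd, the other textbook target, had a log2 ratio of -1.29, and -1.20 on its dimmer probe set. Bcl3, in contrast, was 9.75-fold higher in the mutant, with a log2 ratio of 3.03 that was the 10th highest of all tested genes. Cebpb was 3.06-fold higher, with a log2 ratio of 1.60, and 1.19 on its second probe set. Stat3 was 1.76-fold higher, with a log2 ratio of 0.80, although its probe set 1459961_a_at had one of -0.15. Thus 2 of 8 tested members were 2-fold or more higher and 2 were lower by as much, against 3.62% and 2.77% of all tested genes. The median over the 8 was 0.34, against 0.04 over all genes. Summed signals of 7 basal and myoepithelial markers were 11644 in this mutant and 7543 in its control, and their part in the members' values was not tested.

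**Figure D2:**
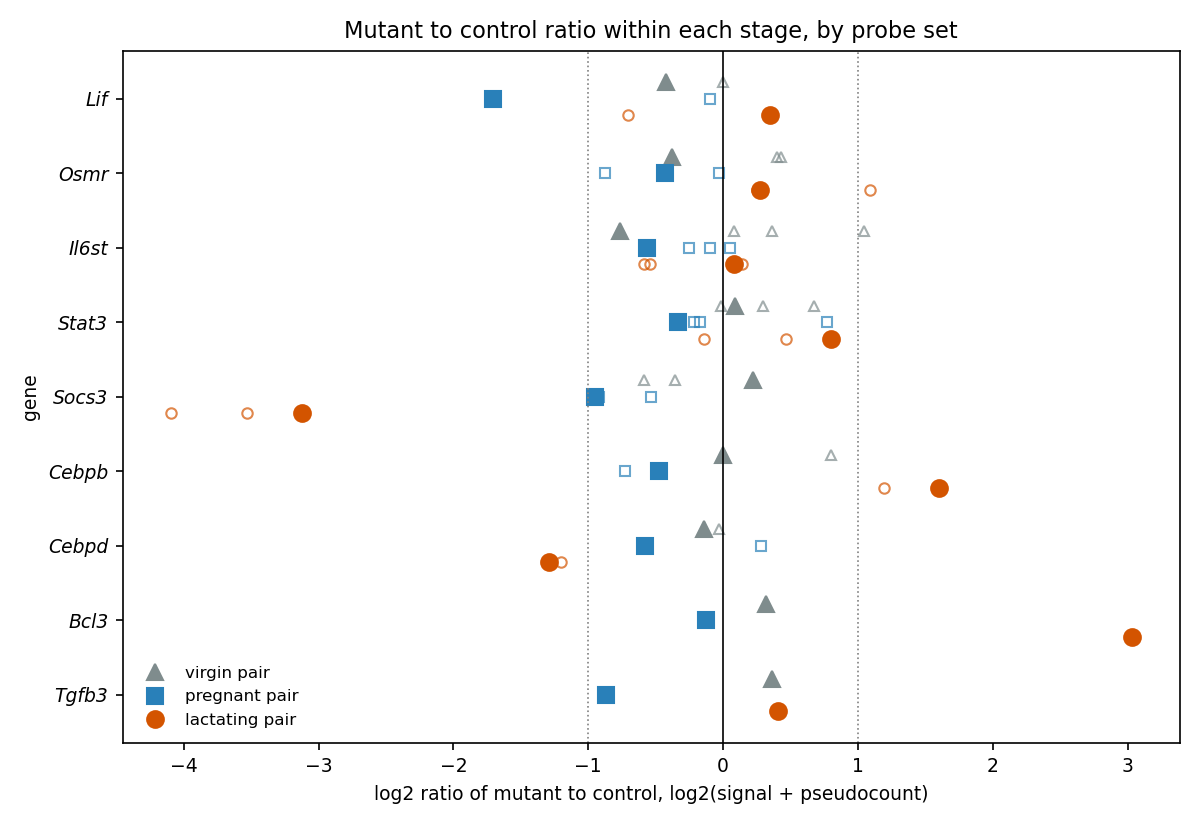
Log2 ratio of mutant to control (signal + 52.1) in the virgin, pregnant and lactating pair for each probe set of the 9 genes, with the lead probe set marked; 1 array per genotype and stage, so no error bars. In the pregnant pair the lead probe sets lie between -1.70 for Lif and -0.13 for Bcl3, and in the lactating pair they spread from -3.13 for Socs3 to 3.03 for Bcl3.

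**Figure D3:**
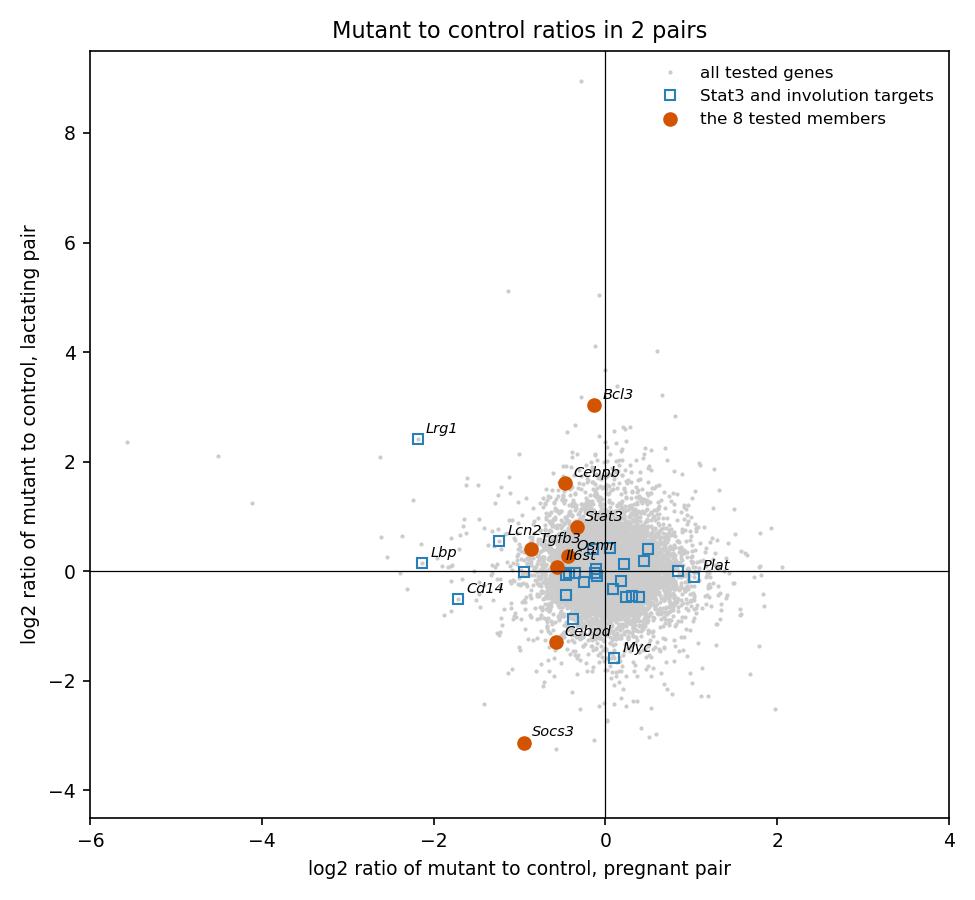
Log2 ratio of mutant to control in the pregnant pair against that in the lactating pair for the 11341 tested genes, with the tested members named; each axis compares 2 arrays. Socs3 lies at -0.95 and -3.13, Bcl3 at -0.13 and 3.03, and Cebpb at -0.47 and 1.60.

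Stage comparisons rested on 2 arrays per stage, 1 mutant and 1 control, with genotype in the model. Summed signals of the 6 skeletal muscle markers were 12096.5 and 34967 in the virgin mutant and control. They were 137116 and 123564 in the pregnant pair and 65128.5 and 66340 in the lactating pair. All 6 were called higher in pregnant against virgin glands, against 6.61% of all tested genes. Their part in the members' stage ratios was not tested. In pregnant against virgin glands Osmr fell, by 0.99 on the log2 scale (SE 0.24, n = 2 arrays per stage; limma adjusted p = 0.0331). No other member passed, so that 1 of 8 was lower and none higher, against 8.09% and 6.61% of all tested genes. Tgfb3 had a log2 ratio of 1.07 ± 0.32 (SE, n = 2 arrays per stage; limma adjusted p = 0.0645) and Cebpd one of -0.81 ± 0.28 (SE, n = 2 arrays per stage; limma adjusted p = 0.0962). The Osmr call was lost under quantile normalization (limma adjusted p = 0.0658), with the mean of its probe sets and without any 1 of the 4 virgin and pregnant arrays, where its log2 ratio lay between -1.18 and -0.80.

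In lactating against pregnant glands 4 of 8 members rose and none fell on their lead probe sets, against 14.9% and 17.0% of all tested genes. Cebpd rose with a log2 ratio of 1.48 ± 0.28 (SE, n = 2 arrays per stage; limma adjusted p = 0.00981), Tgfb3 with 1.16 ± 0.32 (limma adjusted p = 0.0314), Stat3 with 0.94 ± 0.28 (limma adjusted p = 0.0370) and Socs3 with 2.15 ± 0.67 (limma adjusted p = 0.0437). The members' median was 1.05, against -0.04 over all genes. Fitted probe set by probe set, Il6st 1452843_at had a log2 ratio of -0.96 and was called lower (limma adjusted p = 0.0154). Stat3 1426587_a_at and 1424272_at and Socs3 1455899_x_at were called higher. Stat3 1459961_a_at, at -0.09, and Socs3 1456212_x_at, at 1.53, were not called. The Socs3 rise rested on 1 gland: its log2 ratio was 0.77 without the lactating control, where it no longer passed (limma adjusted p = 0.245), and 3.53 without the lactating mutant. It also missed the threshold without either pregnant array and under quantile normalization, where Cebpb passed instead. Cebpd, also high in that control, had 1.01 without it and 1.95 without the lactating mutant, and passed in all 6 fits that left out 1 array. Its dimmer probe set, however, had a log2 ratio of 0.45 ± 0.40 and was not called (SE; limma adjusted p = 0.412), and the mean of its probe sets gave 0.97 (limma adjusted p = 0.0602). Stat3 leaned the other way, with 0.48 without the lactating mutant (limma adjusted p = 0.179), 0.55 without the pregnant mutant (limma adjusted p = 0.289) and 1.40 without the lactating control. Tgfb3 had 0.53 without the pregnant mutant (limma adjusted p = 0.265), 0.83 without the lactating mutant (limma adjusted p = 0.123) and 1.78 without the pregnant control. Cebpb, at 1.34 ± 0.43, just missed the threshold (SE, n = 2 arrays per stage; limma adjusted p = 0.0502) and had 0.42 without the lactating mutant. Its second probe set had a log2 ratio of -0.06 ± 0.41 (SE; limma adjusted p = 0.931).

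In lactating against virgin glands Tgfb3 rose most clearly, with a log2 ratio of 2.23 ± 0.32 (SE, n = 2 arrays per stage; limma adjusted p = 0.00131). Its values leaving out 1 array at a time stayed between 1.90 and 2.55, and it passed in each of those fits. Stat3 rose with 0.77 ± 0.28 (limma adjusted p = 0.0472), and Osmr fell by 1.01 on the log2 scale (SE 0.24; limma adjusted p = 0.00954). Of 8 members 2 were thus higher and 1 lower, against 23.8% and 28.2% of all tested genes, shares that place these counts near the background. The Stat3 ratio was 0.31 without the lactating mutant and 1.24 without the lactating control, and it missed the threshold without the lactating mutant and without either virgin array. Osmr had -0.67 without the lactating control and -0.86 without the virgin control, and passed in neither of these 2 fits. Fitted probe set by probe set, Stat3 1426587_a_at rose with 2.25 ± 0.26 (SE; limma adjusted p = 0.000471) and 1424272_at with 1.51 ± 0.29 (SE; limma adjusted p = 0.00354). The fourth Stat3 probe set fell by 0.68 (SE 0.24; limma adjusted p = 0.0434), and so did Il6st 1452843_at, by 1.40 (SE 0.22; limma adjusted p = 0.00157). Of all probe sets above the filter, 27.0% were called higher and 25.1% lower in this fit.

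The scaling of the arrays bears on these calls. After centring each array on its median, the median log2 ratio over the tested genes was -0.23 for pregnant against virgin, -0.45 for lactating against pregnant and -0.68 for lactating against virgin glands, against -0.06, -0.04 and -0.10 as deposited. The share of called genes that were higher was 27.8%, 16.7% and 18.8% after centring, against 45.0%, 46.8% and 45.8% as deposited. With centring Cebpd and Socs3 were still called higher in lactating against pregnant glands, and Stat3, at 0.53 (limma adjusted p = 0.209), and Tgfb3, at 0.75 (limma adjusted p = 0.107), were not. Relative to the median gene the lactating against pregnant log2 ratios were 2.19 for Socs3, 1.52 for Cebpd, 1.20 for Tgfb3 and 0.98 for Stat3. Against virgin glands centring left Tgfb3 called, and Stat3 had 0.18 (limma adjusted p = 0.629).

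**Figure D4:**
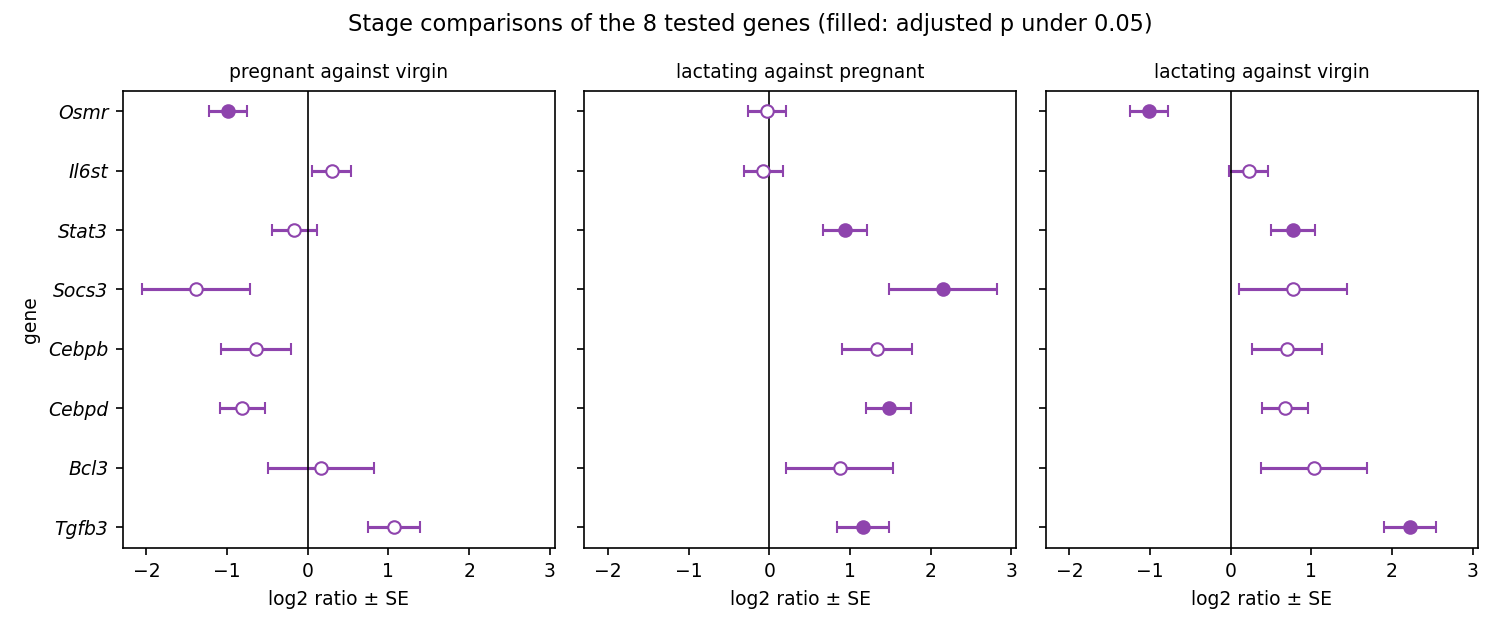
Log2 ratio (signal + 52.1) from limma for the 8 tested members in pregnant against virgin, lactating against pregnant and lactating against virgin glands, on 2 arrays per stage. Bars are ± 1 standard error, which is narrower than the 95% interval. Cebpd, at 1.48, and Socs3, at 2.15, passed in lactating against pregnant glands, and Tgfb3, at 2.23, in lactating against virgin glands.

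The other genes of the pathway were read from lists of its parts. Of all tested genes, 6.61% were called higher and 8.09% lower in pregnant against virgin glands. These shares were 14.9% and 17.0% in lactating against pregnant glands and 23.8% and 28.2% in lactating against virgin glands. Every list count is to be read against them. Of 3 tested gp130 cytokines, Ctf1, which encodes cardiotrophin, rose in lactating against pregnant glands with a log2 ratio of 0.87 ± 0.21 (SE; limma adjusted p = 0.0203), a call lost with centring (limma adjusted p = 0.134), and 2 rose against virgin glands, Ctf1 with 1.20 and Osm, which encodes oncostatin M, with 1.17 ± 0.31 (SE; limma adjusted p = 0.0166). The Osm call was lost with centring and with quantile normalization. Of 6 tested gp130 receptors, 3 fell in pregnant against virgin glands, with none higher, against 8.09% and 6.61% of all tested genes. They were Osmr, the Lif receptor gene Lifr, with a log2 ratio of -1.02 ± 0.22 (SE; limma adjusted p = 0.023), and Il27ra, with -1.47 ± 0.37 (SE; limma adjusted p = 0.0374). These 3 calls were lost under quantile normalization. In lactating against virgin glands 2 rose and 2 fell (1 and 3 with centring), and the highest was Il6ra, the interleukin 6 receptor, with 1.85 ± 0.26 (SE; limma adjusted p = 0.00126). Lifr, the partner of gp130 for Lif, fell there by 0.91 (SE 0.22; limma adjusted p = 0.0104), a call lost under quantile normalization. The medians of the receptors were -0.52 in the first and -0.14 in the second of these comparisons, against -0.06 and -0.10 over all genes.

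Of 4 tested Jak kinase genes, Jak1 fell in pregnant against virgin glands with a log2 ratio of -0.80 ± 0.19 (SE; limma adjusted p = 0.0314), a call lost under quantile normalization, and Tyk2 rose in lactating against virgin glands with 0.91 ± 0.20 (SE; limma adjusted p = 0.00684), a call lost with centring. Among 5 tested Stat genes, Stat5a, which drives milk gene expression under prolactin, rose in pregnant against virgin glands with 0.93 ± 0.18 (SE; limma adjusted p = 0.0173; 0.051 with centring, where the call was lost) and in lactating against virgin glands with 1.23 ± 0.18 (SE; limma adjusted p = 0.00146). Stat2 also rose in pregnant against virgin glands, with 0.96 ± 0.26 (SE, limma adjusted p = 0.0479), a call lost with centring. Stat5b fell in lactating against pregnant glands, with -0.61 ± 0.18 (SE, limma adjusted p = 0.0405). Against virgin glands it had -0.58 ± 0.18 (SE, limma adjusted p = 0.0321). Both calls were lost under quantile normalization. In lactating against virgin glands 3 of the 5 were higher and 1 lower, against 23.8% and 28.2% of all genes. Of 13 tested inhibitors, 1 rose and 1 fell in pregnant against virgin glands, near the 6.61% and 8.09% of all tested genes. Cish, a Stat5 feedback inhibitor, rose with 2.16 ± 0.35 (SE; limma adjusted p = 0.00975), and Ptpn6, a phosphatase of blood cells, fell by 1.21 (SE 0.23; limma adjusted p = 0.0166). In lactating against pregnant glands 2 inhibitors rose and 2 fell, near the 14.9% and 17.0% of all tested genes. Socs3 and the phosphatase gene Ptpn1, at 1.06, were higher, and Socs2, at -1.35, and Ptpn6, at -1.41, were lower. With centring the Ptpn1 call was lost (limma adjusted p = 0.0587), and 1 inhibitor was higher and 5 lower. The inhibitors' medians as deposited were -0.07 and 0.07. Summed signals of 7 macrophage markers were 31913 and 36248 in the virgin mutant and control, 21874 and 22779 in the pregnant pair and 5528.5 and 6080.5 in the lactating pair. Those of 6 T and B cell markers were 6227 and 4156 in the virgin mutant and control. They were 1040 and 722 in the pregnant pair and 763 and 609 in the lactating pair. In pregnant against virgin glands all 6 of these were called lower, while 2 of 7 macrophage markers were lower and 1 higher. The part of either set of markers in the fall of Ptpn6 was not tested.

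Of 5 tested genes of the Cebp family, none rose and Cebpa, which acts in fat cells and epithelium, fell in pregnant against virgin glands, with -1.13 ± 0.21 (SE; limma adjusted p = 0.015). In lactating against pregnant glands 2 rose, Cebpd and Cebpg, the second with 0.65 ± 0.19 (SE; limma adjusted p = 0.0367), a call lost with centring. Of all tested genes, 8.09% were called lower in the first of these comparisons and 14.9% higher in the second. Summed signals of 6 adipocyte markers were 115266 and 107031 in the virgin mutant and control, 74442 and 87196 in the pregnant pair and 46699.9 and 49687 in the lactating pair, and their part in the Cebpa values was not tested.

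Of 16 tested Tgf-beta pathway genes, 1 rose and 5 fell in lactating against virgin glands, with a median of -0.45, against 23.8% and 28.2% of all tested genes. With centring 1 rose and 10 fell, with a median of -1.04. The riser was Tgfb3. The receptor genes Tgfbr3, with -1.32 ± 0.18 (SE; limma adjusted p = 0.00106), and Tgfbr2, with -1.19 ± 0.19 (SE; limma adjusted p = 0.0019), were among those that fell. Tgfb2, another ligand, rose in pregnant against virgin glands with 1.89 ± 0.37 (SE; limma adjusted p = 0.0174). Of 9 tested NF-kB and IkB genes, the family of Bcl3, 1 rose and 3 fell in lactating against pregnant glands, against 14.9% and 17.0% of all tested genes. With centring none rose and 4 fell. Relb fell by 2.62 (SE 0.29; limma adjusted p = 0.0024) and Nfkb2, which encodes the precursor of p52, by 2.19 (SE 0.42; limma adjusted p = 0.00986), while Rela rose with 0.74, a call lost with centring. In the lactating pair Nfkb2, a partner of Bcl3, had a log2 ratio of 1.75 and is named with this value seen. It read 279 in the mutant and 46 in the control, the second under the filter signal of 158. Of the 9 genes, Bcl3 included, 4 had a ratio above 0 in this pair, with a median of -0.05. On the log2 scale 2 were at least 2-fold higher and 1 lower, against 3.62% and 2.77% of all tested genes. The lowest was Nfkbiz, at -1.17.

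Of a list of 27 tested Stat3 and involution targets, 9 rose and 7 fell in lactating against virgin glands, with a median of 0.01, against 23.8% and 28.2% of all tested genes. With centring 5 rose and 12 fell, with a median of -0.57. Igfbp5, a binding protein that blocks insulin-like growth factor survival signals in involution, rose with a log2 ratio of 2.12 ± 0.20 (SE; limma adjusted p = 0.000333). In pregnant against virgin glands it had one of 2.10 ± 0.20 (SE; limma adjusted p = 0.00212). Mmp3, a matrix protease of the stroma, fell by 3.19 (SE 0.19; limma adjusted p = 8.84e-05). In lactating against pregnant glands 2 of the 27 rose and 4 fell, with a median of 0.02, against 14.9% and 17.0% of all tested genes. With centring 1 rose and 9 fell. Cd14, a lipopolysaccharide co-receptor, was 1 of the 2 that rose as deposited, with 1.85 ± 0.38 (SE, limma adjusted p = 0.0123). The summed fibroblast markers fell from virgin to lactating glands, as given above, and their part in the Mmp3 values was not tested.

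In the pregnant pair 4 of these 27 targets were at least 2-fold lower in the mutant on the log2(signal + 52.1) scale and 1 higher, against 0.908% and 1.03% of all tested genes. The 5 are named after their values were seen. The log2 ratio was -2.19 for Lrg1, -2.13 for Lbp and -1.72 for Cd14, and -1.24 for Lcn2; these encode 2 secreted acute-phase proteins, a lipopolysaccharide co-receptor and lipocalin 2. Junb, an AP-1 factor, passed 2-fold by signal alone, at 287 in the mutant and 603 in the control. The higher one was the plasminogen activator gene Plat, at 1.03. In the lactating pair Lrg1 stood at 2.41 and Myc at -1.58, with no other target 2-fold apart, so that Lrg1 had opposite ratios in the 2 pairs. Of 21 tested immediate early genes, 7 were at least 2-fold lower and 1 higher in the lactating mutant on the same scale, against 2.77% and 3.62% of all tested genes. Btg2, at 1019 in the mutant and 2053 in the control, passed by signal alone. Summed signals of the 23 immediate early genes on the array were 26181 in the mutant and 39922.5 in the control. Jund alone made up 12921 and 18528 of these sums, with a log2 ratio of -0.52. Dusp1, at -1.47, Klf6, at -1.45, and Jun, at -1.21, had the lowest log2 ratios of the list, beside Socs3 and Cebpd, which are themselves induced fast. The part of these genes' shared movement in the values of Socs3 and Cebpd was not tested.

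Across the 6 arrays the tested genes with the pattern most like a member were named by Pearson correlation, a description with no test in which the points share stage and genotype. For Tgfb3 these were Kctd1 (r = 0.999), Tfb2m (r = 0.994) and Card14 (r = 0.994). For Cebpd they were Ubxn7 (r = 0.993), Nbr1 (r = 0.990) and Mrpl41 (r = 0.987), and for Osmr Tsc22d1 (r = 0.994), Rnf139 (r = 0.987) and Rapgef3 (r = 0.986). For Stat3 they were Rnf114 (r = 0.979), Spin2c (r = 0.977) and Pcyt2 (r = 0.975), and for Socs3 Adcy5 (r = 0.975), Flcn (r = 0.975) and Mylip (r = 0.973).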

How the data were processed

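MAS5 signal intensities, 1 per probe set and array, were deposited by the authors on a linear scale; MAS5 is the tool named in the submitters' processing notes, with no version known here. The intensity values, scaled by the authors to a 2% trimmed mean of 500 as the files show, were kept and turned into log2(signal + 52.1), the 25th percentile of all values. Of 45101 probe sets, 34945 with 1 gene symbol were used; 932 had several symbols, 9160 are unnamed here and 64 were controls. Of a gene's probe sets the 1 of highest mean log2 value was taken, those ending in _s_at or _x_at only where it had no other, and tested at a mean of 7.715 or more, the median of all probe sets.

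Mutant and control were compared in limma 3.58.1 (R 4.3.3; eBayes with trend) with stage as a block, and stages with genotype as a term, on 6 arrays with 2 residual degrees of freedom. Benjamini-Hochberg adjustment ran over all 11341 genes, with calls at 0.05. The stage in the labels pairs the arrays, and deviations from genotype means correlated within pairs across genes (r = 0.858 virgin, 0.582 pregnant, 0.820 lactating; genes are not independent replicates). Members, lists and alternatives were chosen with earlier results of these data known. Named were all members, up to 4 called genes per list and comparison with the smallest p (some left out for brevity), and the genes most like 5 members. The code was tested on simulated data. The labels name 1 mouse per array; the number of arrays limits precision. Figures were drawn with matplotlib 3.10.9.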

Additional observations from a re-analysis of the deposited data

Results flagged for a closer look

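Of the 8 tested members, 7 had mutant to control log2 ratios of opposite sign in 2 stages. Mixed signs were common: only 15.3% of all tested genes were higher in all 3 pairs and 10.6% lower in all 3. In 5 of the 7 members the ratios lay at least 1 apart on the log2 scale, a share that was not counted over all genes. Each ratio is from 1 array per genotype, and none of these differences between stages was tested. Socs3 stood at -3.13 in the lactating pair and at 0.22 in the virgin pair. Bcl3 stood at 3.03 in the lactating pair and at -0.13 in the pregnant pair. Cebpb, Stat3 and Tgfb3 also had their highest ratio in the lactating pair, at 1.60, 0.80 and 0.40, and their lowest in the pregnant pair, at -0.47, -0.33 and -0.87. Between the pregnant and lactating pairs stage cannot be told apart from the kind of Brca1 allele, conditional or germline. The virgin and lactating pairs, set side by side for Socs3, carried the same germline allele but differed in age and array date.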

How the results depend on the processing

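No member or other gene was called for mutant against control in any fit, with 0 genes also without the replicate block and 0 to 0 leaving out arrays or pairs. For pregnant against virgin glands 1 member was called lower, but 0 under quantile normalization, with the mean of probe sets or with no variance trend, 2 with median centring and 4 without the lactating arrays, and 1 was higher without the genotype term or without the lactating arrays. For lactating against pregnant glands 2 members were higher, in place of 4, with centring, the mean of probe sets or no variance trend. Against virgin glands 1 was higher, in place of 2, with centring, a pseudocount of 14.9, no filter, the 75th percentile filter or no variance trend, and 0 were lower with the mean of probe sets.

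Genes called were 2106 for lactating against pregnant and 3513 for lactating against virgin glands with the 75th percentile filter, which tests fewer genes, against 3614 and 5895. Testing every probe set gave 2968, 6225 and 10152 calls in the 3 stage comparisons, and pregnant against virgin without the lactating arrays gave 2624, against 1667. Sign turned for Il6st in lactating against pregnant glands under quantile normalization (0.079), for Bcl3 in pregnant against virgin (-0.015) and Il6st in lactating against virgin glands (-0.37) with centring, and with the mean of probe sets for Osmr in mutant against control (0.081), Cebpb in pregnant against virgin (0.11) and Il6st in lactating against virgin glands (-0.057). The cause was not tested, and none of these ratios had been called.

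Leaving out 1 array at a time, the genes called ranged from 329 to 2619 for pregnant against virgin, 1138 to 3350 for lactating against pregnant and 3385 to 5573 for lactating against virgin glands. Members higher ranged from 0 to 1, 1 to 5 and 1 to 4, and members lower from 0 to 4, 0 to 0 and 0 to 1. Some log2 ratios, none of them called, turned sign when arrays or pairs were left out. For mutant against control Stat3 ranged from -0.12 to 0.44, Cebpb from -0.23 to 0.80 and Tgfb3 from -0.25 to 0.38. For pregnant against virgin glands Stat3 ranged from -0.56 to 0.22 and Bcl3 from -0.74 to 1.06. For lactating against pregnant glands Osmr ranged from -0.36 to 0.32, Il6st from -0.45 to 0.30 and Bcl3 from -0.60 to 2.34. For lactating against virgin glands Socs3 ranged from -0.61 to 2.15, Il6st from -0.15 to 0.60, Cebpb from -0.22 to 1.62 and Bcl3 from -0.44 to 2.5. Fits that leave 1 array in a stage assume that it varies like the others. Lif was too dim to test.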
